A study of Mus musculus with 5 samples.

Results

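The Trem, Pilr and DAP12 adaptor genes are 10 mouse genes of paired surface receptors and their signalling adaptors. They are Trem1, Trem2, Treml1, Treml2 and Treml4 on chromosome 17, Tyrobp, Hcst and Pirb on chromosome 7, and Pilra and Pilrb1 on chromosome 5. They were chosen by name among 21631 protein-coding genes, with earlier results of these data known. Shares set beside those of all genes therefore describe the members and do not test for enrichment. The sites studied are all those of a PU.1 binding list that lay inside one of these genes or within 50 kb of either end, with a site shared by neighbouring genes counted a single time. This gave 19 of the 11111 sites of the list.

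The list comes from ChIP-seq, the sequencing of DNA recovered by immunoprecipitation of a chromatin protein, here PU.1, the myeloid transcription factor encoded by Spi1, with antibody T-21. The cells were AML-246, a p53-/- acute myeloid leukaemia on the C57BL/6 background that carries a doxycycline-regulated, GFP-linked short hairpin RNA against PU.1, taken from the spleens of leukaemic recipient mice. PU.1 high cells came from mice given doxycycline for 2 days, which switches the hairpin off (3 libraries), and PU.1 low cells came from untreated mice, in which the hairpin is on (2 libraries). Both groups share the p53 loss, the hairpin and the leukaemia, and the libraries of a group are labelled technical replicates, so they need not come from different mice.

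The deposited list sets PU.1 high against PU.1 low, and each site is the summit of a peak with the authors' score on a −log10 scale. A higher score means that a site stood out more surely, not that binding changed by a larger factor. The sources do not say which of the 2, p-value or q-value, lies behind it. The list has no value per library, so depth is unknown, no replicate error can be given and no difference between PU.1 high and PU.1 low cells was tested here. What follows describes where the listed sites lie. A list made in this direction is not meant to hold sites bound alike in both groups, so a gene without a listed site may still be bound. The labelled cell type could not be checked against expression of its markers from these data.

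Paired receptors are families of related surface proteins in which some members activate and others inhibit the same myeloid cells. Activating members, such as TREM-1, TREM-2 and PILR-beta, have short tails and signal through DAP12 (Tyrobp), an adaptor whose immunoreceptor tyrosine-based activation motif (ITAM) recruits the kinase Syk. Inhibitory members, such as PILR-alpha and PIR-B, carry inhibitory motifs (ITIMs) in their own tails that recruit the phosphatases SHP-1 and SHP-2. DAP10 (Hcst) is the related adaptor that signals to phosphoinositide 3-kinase, best known as the partner of the receptor NKG2D.

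All 10 members had a site inside the gene or within 50 kb, where 50.3% of protein-coding genes had one. Within 10 kb, 8 of the 10 had a site, against 27.8% of protein-coding genes. The members are short, with spans of 2.14 to 14.3 kb, and among the 9911 protein-coding genes of up to 15 kb the shares were 42.6% within 50 kb and 17.7% within 10 kb. A site with a score of at least 10 lay within 50 kb of all 10, against 26.9% of protein-coding genes. At least 3 sites lay within 50 kb of 9 of the 10, against 13.9%. The exception was Trem2, with 2 sites. The comparison with short genes was added after the values were seen, and none of these shares was tested. These counts are not independent of each other, since 14 of the 19 sites were within reach of several members and 1 of them was within reach of 4.

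**Figure D1:**
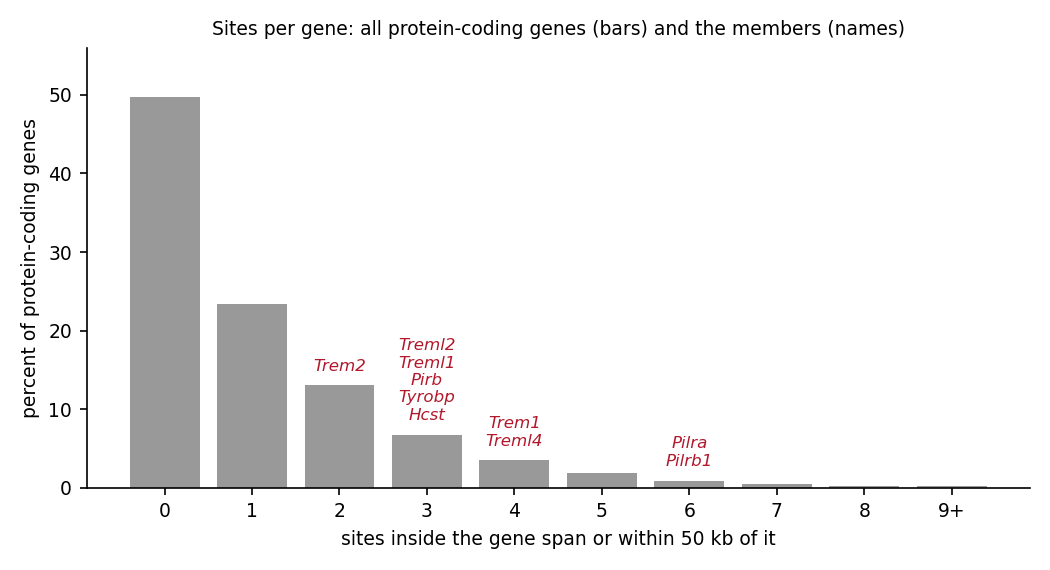
Percent of all 21631 protein-coding genes (bars) by the number of sites inside the gene or within 50 kb of it, with the members named above the bar of their own number. Pilra and Pilrb1 stand at 6 sites, and no member stands at 0 or 1.

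The members fall into 4 loci. Around the Trem genes there were 7 sites, or 2.99 per 100 kb of the window searched, around Tyrobp and Hcst 3 (2.83 per 100 kb), around Pilra and Pilrb1 6 (4.40 per 100 kb) and around Pirb 3 (2.78 per 100 kb). The genome as a whole, stretches far from genes included, held 0.427 sites per 100 kb, so it is not like the windows around genes. Counted per gene within 50 kb, with shared sites repeated, the median was 3 for the members and 1 for all protein-coding genes. Neighbouring sites of a locus lay between 1.94 and 62.7 kb apart. Of the 19 sites, 5 were inside a member, 7 more lay within 2 kb of one, 2 lay between 2 and 10 kb away and 5 lay farther. A member was the nearest protein-coding gene for 11 sites, and another gene was nearer for the other 8.

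In the Trem locus the high scores lay between genes, inside them and next to them. Trem1, the gene of a DAP12-coupled receptor that amplifies inflammatory responses (chromosome 17, 48232713 to 48246927), had 4 sites within 50 kb. The site at 48230896 scored 12.1 and lay 1.84 kb upstream of the annotated start. The site at 48247708 scored 8.76, close to the median of all sites, and lay 0.781 kb beyond the far end of Trem1, inside the neighbouring gene Trem3, which encodes another activating mouse receptor. The highest score of the locus, 17.6 at 48185355, stood 47.4 kb from Trem1 in the gap towards A530064D06Rik, which was nearer to it at 18.1 kb.

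Treml4, the gene of a TREM-like receptor of macrophages and dendritic cells (48264200 to 48275607), had a site at 48263932 with a score of 16.1, the closest one to the start of a Trem member in the promoter table. It lay 363 bases upstream of the annotated start. Trem2, the gene of a lipid-sensing receptor of macrophages and microglia (48346401 to 48352276), was the only Trem member with a site inside it, at 48347481 with a score of 14.5, 1.08 kb downstream of its start. Within 2 kb of the start, Trem2 thus had its site behind it, whereas Trem1 and Treml4 had theirs in front.

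Treml2, the gene of a TREM-like receptor of myeloid and lymphoid cells (48299390 to 48312534), and Treml1, which encodes the ITIM-bearing platelet receptor TLT-1 (48359916 to 48367176), were the 2 members without a site within 10 kb. The nearest to Treml2 stood at 48324431 with a score of 16.6, 11.9 kb beyond its upper end (the end with the higher coordinate), and lay inside the uncharacterised gene B430306N03Rik. The nearest to Treml1 was the site inside Trem2, 12.4 kb from it. Treml1 also reached the site at 48410203 (score 9.75), which lay 203 bases downstream of the start of Oard1, an ADP-ribose hydrolase gene, and 383 bases upstream of the start of Nfya, a subunit gene of the CCAAT-binding factor. That site was 43.03 kb from Treml1 and much closer to this pair of starts.

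**Figure D2:**
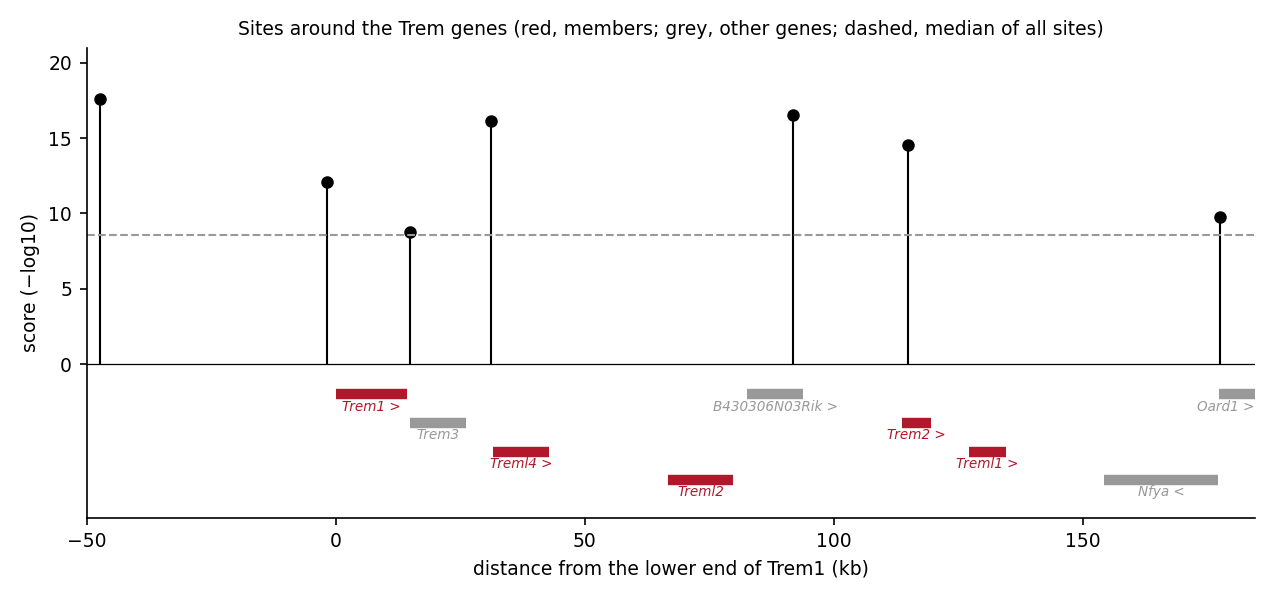
Score of each site (vertical lines with points, −log10) against the distance from the lower end of Trem1 in kb, with members in red and other protein-coding genes in grey below, and arrowheads for the strand where the promoter table gives it. All 7 sites lie above the median of all sites (dashed line, 8.56), and the 4 highest score 14.5 to 17.6.

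The RefSeq promoter table (GRCm38.p6) covers 250 bases before to 50 after a start and held 8 of the 10 members, all but Tyrobp and Treml2. The promoters of Treml4 and Trem2 are shown because a site lay 363 bases in front of the Treml4 start and 1.08 kb behind that of Trem2. Neither summit falls inside the window. Both are on the plus strand, at chr17:48264045-48264344 for Treml4 and chr17:48346151-48346450 for Trem2, written 5′ to 3′, with capitals on the PU.1 core word GAGGAAG or its reverse complement.
Treml4: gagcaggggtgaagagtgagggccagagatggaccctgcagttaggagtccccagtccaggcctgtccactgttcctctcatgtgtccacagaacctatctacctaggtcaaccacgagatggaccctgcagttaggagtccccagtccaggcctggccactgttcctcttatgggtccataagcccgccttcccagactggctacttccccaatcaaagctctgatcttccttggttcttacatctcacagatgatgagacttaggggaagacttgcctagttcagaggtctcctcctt
Trem2: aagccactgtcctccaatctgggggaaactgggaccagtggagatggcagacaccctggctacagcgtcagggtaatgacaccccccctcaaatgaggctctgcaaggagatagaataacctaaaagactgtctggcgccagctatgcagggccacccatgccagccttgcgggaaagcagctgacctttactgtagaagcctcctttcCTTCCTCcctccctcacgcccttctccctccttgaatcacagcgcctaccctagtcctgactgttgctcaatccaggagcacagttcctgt
The word occurred in the Trem2 window, on the minus strand with its first base 41 before the start, and not in that of Treml4. Trem2 was also the only member whose window held the AP-1 word TGANTCA.

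The adaptor genes had sites of moderate score right at their ends. Tyrobp, the DAP12 gene (chromosome 7, 30413782 to 30417582), and Hcst, the DAP10 gene (30417712 to 30419854), lie 129 bases apart and share 3 sites. The site at 30413759 scored 10.3 and lay 23 bases beyond the lower end of Tyrobp, the closest approach of any site to the end of a member. The promoter table does not hold Tyrobp, so its distance to a start is not given.

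The site at 30420429 also scored 10.3 and lay 575 bases upstream of the start of Hcst, which is read from the minus strand. It also lay 1302 bases upstream of the start of Nfkbid, the gene of a nuclear regulator of NF-kB that is read from the plus strand, and thus between the diverging starts of both genes. The last site, at 30423168 with a score of 8.84, lay inside Nfkbid, 1437 bases downstream of its start and 3.31 kb from Hcst. With 3 sites within 10 kb, Tyrobp and Hcst stood with the 3.97% of protein-coding genes that had at least as many. The Hcst promoter is shown because of the site 575 bases in front of its start (chr7:30419805-30420104, minus strand, 5′ to 3′).
Hcst: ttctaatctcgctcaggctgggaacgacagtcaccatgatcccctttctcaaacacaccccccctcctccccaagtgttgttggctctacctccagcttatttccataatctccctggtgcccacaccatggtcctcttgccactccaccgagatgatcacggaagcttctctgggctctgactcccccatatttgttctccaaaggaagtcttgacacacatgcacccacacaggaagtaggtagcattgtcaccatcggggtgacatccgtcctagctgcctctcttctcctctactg
It has no capitals because the exact word GAGGAAG is not in this window. Words that differ from it by a letter were not marked, and the general ETS core GGAA occurred 5 times there, on both strands together.

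Pilra, the gene of the inhibitory receptor PILR-alpha (chromosome 5, 137821952 to 137836278), carried more sites inside it and within 10 kb than any other member. There were 3 inside the gene, at 137823348, 137825292 and 137828820, with scores of 7.48, 13.6 and 8.81. A further site at 137837360 lay 1.08 kb upstream of its start and had the highest score of all 19, 19.1, which ranked 523 of 11111. With 4 sites within 10 kb, Pilra stood with the 1.88% of protein-coding genes that had as many or more. The gene next to its far end, Zcwpw1, overlaps it and lay 727 bases from the site at 137823348.

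Pilrb1, the gene of an activating PILR-beta receptor (137852141 to 137858425), had no site upstream of its start that was closer than 14.9 kb. Its nearest site, at 137850498 with a score of 9.77, lay 1.64 kb beyond its far end. The site 14.9 kb upstream, at 137872906 with a score of 6.57, was closer to Pilrb2, a second activating gene of the family, and stood 1.15 kb upstream of the Pilrb2 start. Pilra and Pilrb1 each reached the same 6 sites, a number that 1.78% of protein-coding genes matched or exceeded within 50 kb.

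Both members of the receptor pair have nearly the same promoter, shown for comparison with capitals as above (Pilra, chr5:137836229-137836528; Pilrb1, chr5:137858000-137858299; both minus strand, 5′ to 3′).
Pilra: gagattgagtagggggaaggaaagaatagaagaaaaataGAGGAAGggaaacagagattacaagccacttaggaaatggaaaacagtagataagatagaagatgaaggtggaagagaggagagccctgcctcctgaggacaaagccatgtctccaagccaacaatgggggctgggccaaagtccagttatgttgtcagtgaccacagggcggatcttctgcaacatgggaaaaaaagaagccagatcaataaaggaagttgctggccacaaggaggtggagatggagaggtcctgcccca
Pilrb1: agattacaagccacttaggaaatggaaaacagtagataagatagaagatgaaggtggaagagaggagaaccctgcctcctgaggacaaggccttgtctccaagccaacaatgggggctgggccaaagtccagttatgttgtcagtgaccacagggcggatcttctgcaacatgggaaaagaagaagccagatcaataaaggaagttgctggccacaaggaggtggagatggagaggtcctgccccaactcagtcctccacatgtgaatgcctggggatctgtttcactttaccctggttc
They were 98.4% identical over 246 aligned positions, and the Pilrb2 promoter was 99.2% identical to that of Pilra over 246. The word GAGGAAG stood 211 bases before the Pilra start, just outside the stretch that the Pilrb1 window shares with it, so these windows do not show whether Pilrb1 has it.

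In the alignment the annotated start of Pilrb2 lay 54 bases farther downstream than that of Pilra. Carried over to the Pilra start, the site in front of Pilrb2 fell 1094 bases upstream, 12 bases from the site in front of Pilra at 1082 bases. The listed scores at these matching places were 6.57 for Pilrb2 and 19.1 for Pilra, and no site was listed at the matching place of Pilrb1. The alignment covers the promoter windows only, so gaps farther upstream could move this estimate. Where copies are this alike, short reads may not be assigned to a single copy, and the sources used here do not give how the authors treated such reads, so the part of read assignment in these differences was not tested.

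Pirb, the gene of the inhibitory receptor PIR-B (chromosome 7, 3712505 to 3720382), had 1 site inside it, at 3715435 with a score of 10.8, 4.95 kb downstream of its start. A site at 3707213 scored 10.7 and lay 5.29 kb beyond the far end of Pirb, but only 316 bases beyond the far end of Rps9, a ribosomal protein gene. The last site, at 3692142, had the lowest score of the 19, 2.29, and lay inside Mboat7, a phospholipid acyltransferase gene, 20.4 kb from Pirb. That put it 844 bases downstream of the Mboat7 start and 1468 bases upstream of the start of Tsen34, the next gene. The promoter of Pirb (chr7:3720333-3720632, minus strand, 5′ to 3′) is shown because it holds the word GAGGAAG, in capitals, 120 bases before the start.
Pirb: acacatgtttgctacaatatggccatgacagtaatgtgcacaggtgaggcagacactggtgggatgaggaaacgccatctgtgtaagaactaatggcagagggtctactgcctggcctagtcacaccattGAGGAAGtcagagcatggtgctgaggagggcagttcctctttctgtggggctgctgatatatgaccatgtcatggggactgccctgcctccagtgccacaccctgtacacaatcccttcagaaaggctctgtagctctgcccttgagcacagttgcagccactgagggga
It was 97.3% identical over 300 positions to the promoter of Pira1, a neighbouring gene of the activating PIR-A receptors. No site of the list was nearer to Pira1 than the one inside Pirb, 16.2 kb away, and the limit on closely alike copies applies here as well.

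**Figure D3:**
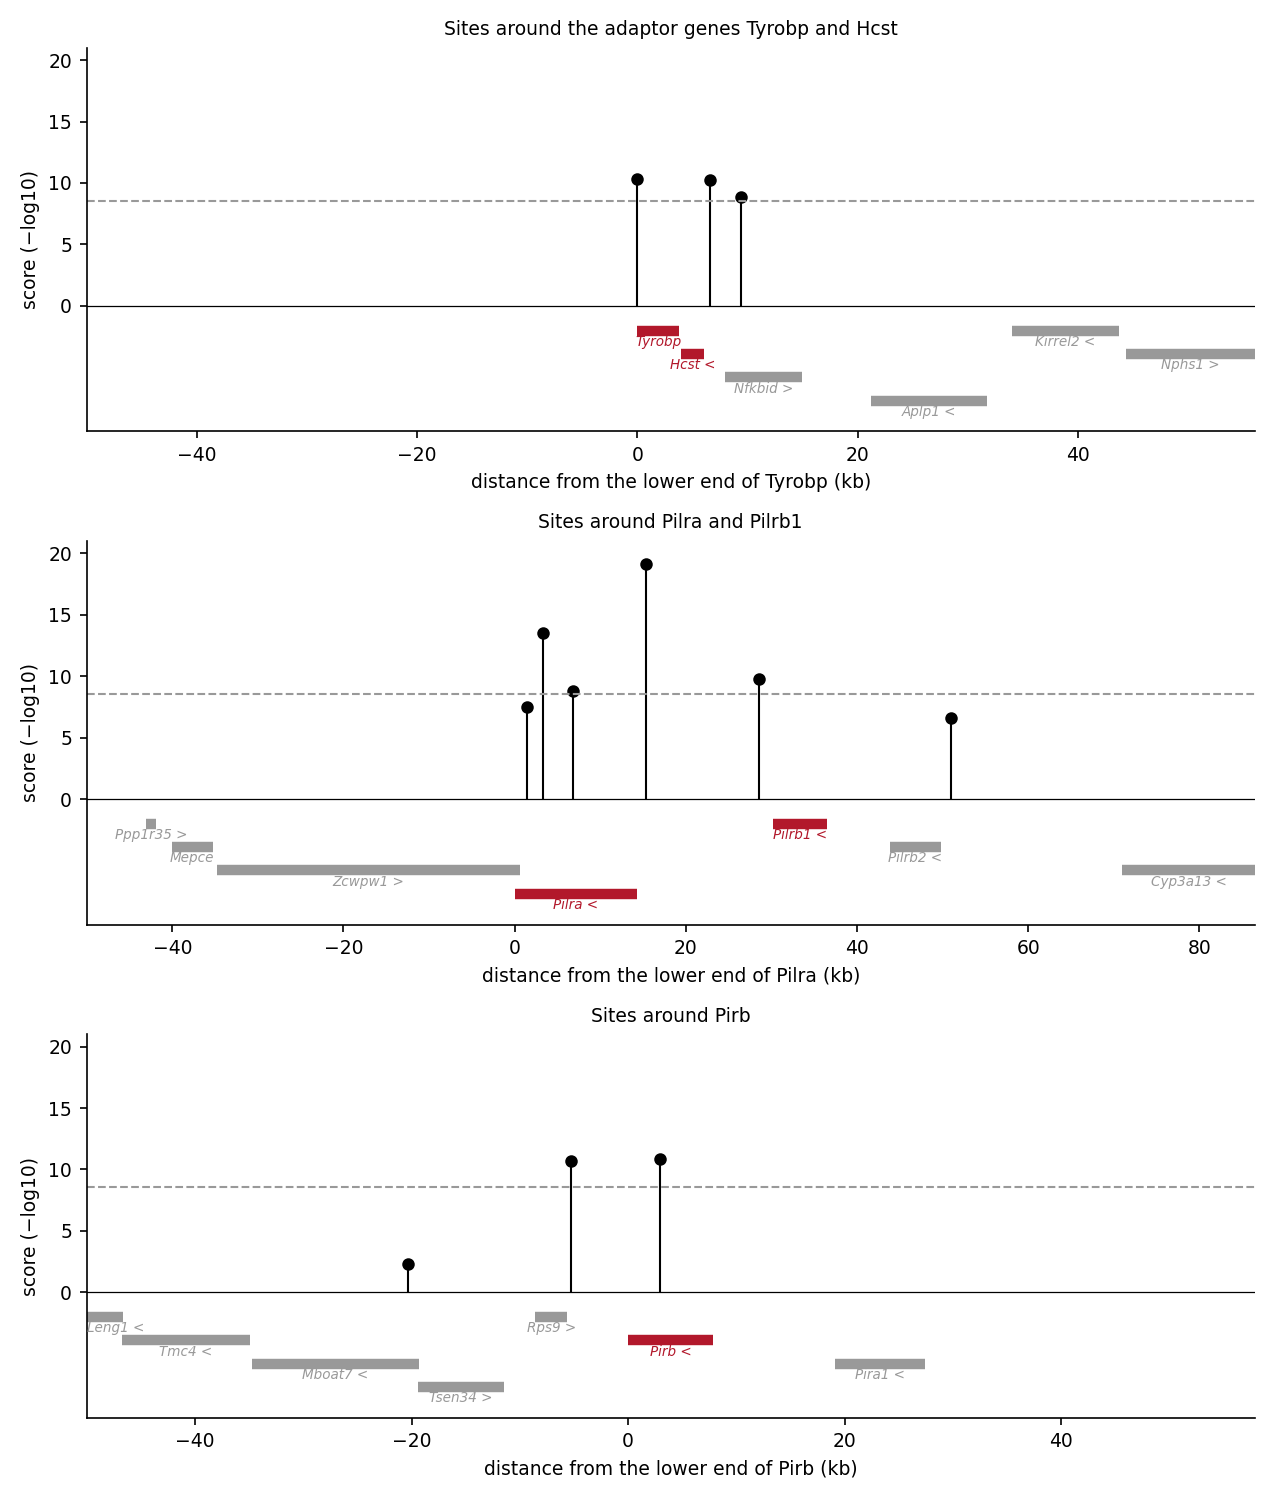
Score of each site (−log10) against the distance in kb from the lower end of Tyrobp, Pilra and Pirb, with members in red, other protein-coding genes in grey and the median of all sites, 8.56, as a dashed line. The sites at the adaptors crowd within 10 kb of the genes, the highest one stands in front of Pilra at 19.1, and the lowest, 2.29, lies away from Pirb.

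Around starts, 5 of the 8 members in the promoter table had a site within 2 kb, against 7.97% of the 17274 protein-coding genes in it. These were Treml4, Hcst, Trem2, Pilra and Trem1. Within 1 kb there were 2 of 8, Treml4 and Hcst, against 6.03%. These comparisons around starts were chosen after the values were seen and were not tested. A site inside the gene was found for 3 of 10 members, Trem2, Pilra and Pirb, against 16.6% of all protein-coding genes and 5.10% of those of up to 15 kb.

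Over the 8 promoter windows, the general ETS core GGAA, searched on both strands like the other words, was present in 8, against 96.0% of the 32619 promoters in the table, a share near the background. The longer word GAGGAAG, which contains it, was in 3 of 8 (Trem2, Pilra and Pirb), against 13.4%. The C/EBP word TTGCNNAA was in 3 of 8 (Trem2 and the near-identical pair Pilra and Pilrb1), against 10.9%, and TGANTCA in 1 of 8, against 7.85%. These matches describe letters, not binding.

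The scores of the 19 sites ran from 2.29 to 19.1 with a median of 10.3, against 1.32 to 43.3 with a median of 8.56 for all sites. Of the 19, 16 lay above the median of all sites, and 11 (57.9%) scored at least 10, against 37.4% of all sites. By locus, the median was 14.5 around the Trem genes, 10.3 at the adaptors, 9.29 at Pilra and Pilrb1 and 10.7 at Pirb. The 3 sites below the general median were those at 137823348 inside Pilra, in front of Pilrb2 and inside Mboat7. No member site scored 20 or more.

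**Figure D4:**
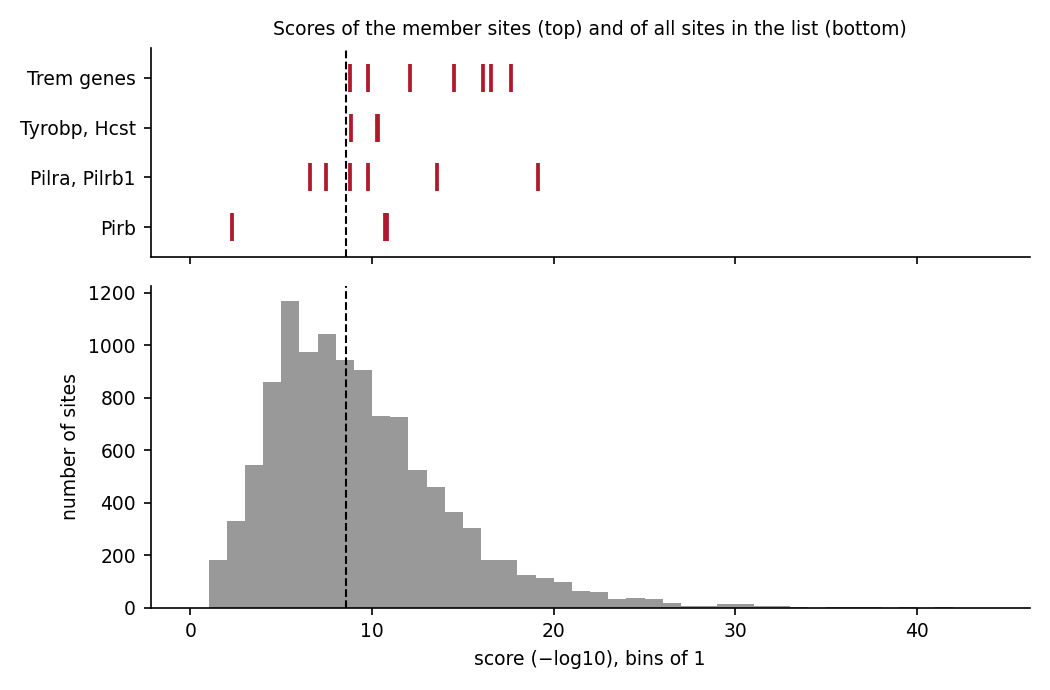
Scores (−log10) of the member sites by locus (top, 1 tick per site) and of all 11111 sites in bins of 1 (bottom), with the median of all sites, 8.56, as a dashed line. All Trem and adaptor ticks lie right of the line, and none of the 19 reaches the long upper tail.

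The limit of 50 kb decided some assignments. Just inside it were the site 47.4 kb from Trem1 (score 17.6) and the one 48.8 kb from Treml4 (16.6). Just outside were sites 50.9 kb from Trem1 (9.57) and 51.2 kb from Treml1 (5.37).

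Genes that work with these receptors carried sites to differing degrees. Of 17 other receptors known to couple to DAP12 or DAP10, or to act with them, 9 had a site within 10 kb (52.9%) and 13 within 50 kb (76.5%), against 27.8% and 50.3% of protein-coding genes. Trem3 and Pilrb2 lie within the member loci and are counted through sites already counted for the members, so this list is not separate from them. Trem3 reached the site in front of Treml4 (16.1), 5.08 kb away. Clec5a, the gene of the DAP12-coupled lectin receptor MDL-1, had a highest score of 11.8 at 9.14 kb. Cd300lb, an activating CD300 receptor gene, had one of 10.7 at 9.68 kb. The natural killer cell receptor genes Klra4 and Klra8 had no site within 50 kb.

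Of 27 genes of ITAM signalling, 16 had a site within 10 kb (59.3%) and 18 within 50 kb (66.7%). Several of them, such as Vav3, Fyn and Vav2, are far longer than the members, and these shares were not matched for gene length. The highest scores were inside Vav1 (22.6), a guanine nucleotide exchange factor gene, Lcp2 (21.8), which encodes the scaffold SLP-76, and Pik3cd (20.4), a catalytic subunit gene of phosphoinositide 3-kinase. Bcl10 and Card9, adaptors that lead from Syk to NF-kB, had no site within 50 kb.

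Of 20 inhibitory receptors, docking proteins and phosphatases, 15 had a site within 10 kb (75%) and 19 within 50 kb (95%). The highest scores were inside Pecam1 (24.8), an ITIM receptor gene, Inpp5d (23.5), the gene of the lipid phosphatase SHIP-1, and Clec4a2 (21.8), an inhibitory lectin receptor gene. Ptpn6 and Ptpn11, the genes of SHP-1 and SHP-2, which the ITIMs of PILR-alpha and PIR-B recruit, were named after their values were seen. Each had 2 sites within 10 kb, with a highest score of 11.3 for Ptpn6 and 12.2 for Ptpn11. The B cell receptor gene Cd22 had none within 50 kb.

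Of 14 ligands and sheddases, 6 had a site within 10 kb (42.9%) and 10 within 50 kb (71.4%). Apoe, the gene of a lipoprotein that TREM-2 binds, had one of 16.3 inside it, Adam17, a protease gene that releases surface receptors, one of 13.4, and Rtn4, the gene of the PIR-B ligand Nogo, one of 13.2. Cd99 and Cd99l2 had none within 50 kb, but the gene table gives Cd99 as bases 48 to 1475 of chromosome 4, which may be a position on an unplaced piece, so nothing is read from its count. List genes that lie close together, such as those of the CD300 family, can reach the same sites within 50 kb. The genes counted are therefore not independent of each other. The list shares were not tested, and none was matched for gene length. Length matters here, since 17.7% of genes of up to 15 kb had a site within 10 kb, against 27.8% of all protein-coding genes.

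**Figure D5:**
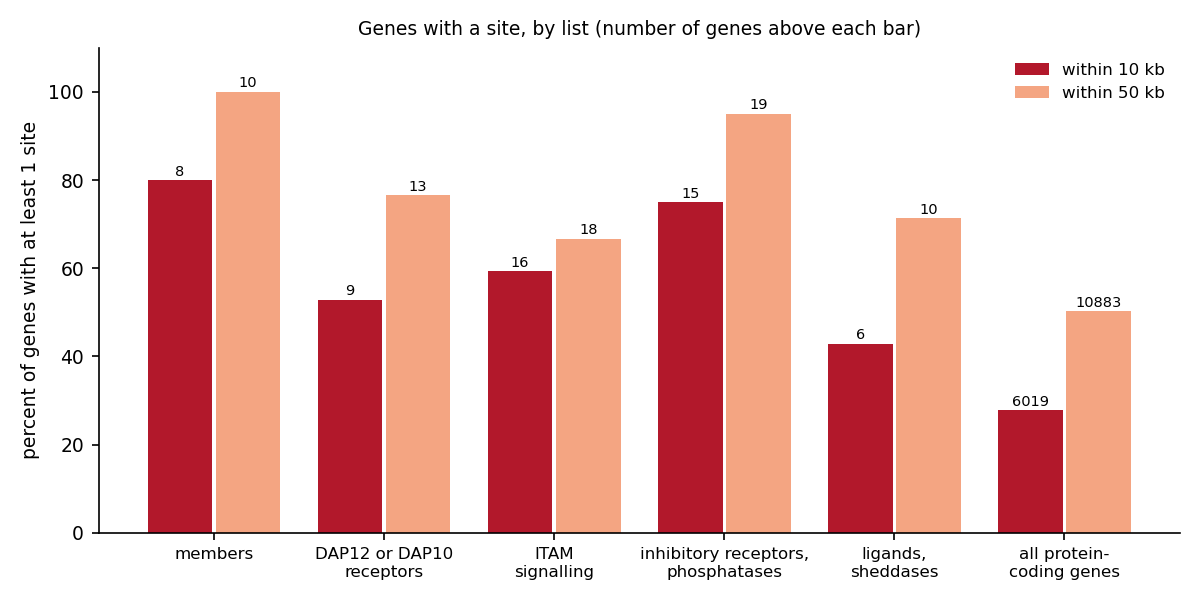
Share of genes, in percent, that had a site within 10 kb (dark) and within 50 kb (light) for the 10 members, the 4 lists of partner genes and all protein-coding genes, with the number of genes above each bar. The members stand at 80% and 100%, and all protein-coding genes at 27.8% and 50.3%. Trem3 and Pilrb2 in the receptor list share their sites with the members, and the lists are not matched for gene length.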

How the data were processed

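One list of PU.1 ChIP-seq summits for the whole series was used. The build was mm10 and the named tools were CASAVA 1.8.2 and MACS2, per the submitters' processing notes. The aligner, read filters, MACS2 settings and handling of technical replicates were not given in the sources used here. Deposited values are the authors' −log10 scores, either p-values or q-values. The lowest is 1.32, just above the −log10 of 0.05. The direction of the list, high over low, is taken from the file's title. No depth or value per library is given, so no test between groups was made. The 95% intervals behind the comparison of settings cover counting error only. They treat members and sites as independent, although neighbouring members share sites, so they may be too narrow.

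Summits were written 1-based and assigned by distance to gene spans of the RefSeq table for GRCm38.p6, whose coordinates are those of mm10, on chromosomes 1 to 19 and X (11106 sites), with pandas 2.3.3. All 10 members and all 78 genes of the 4 lists matched by symbol. Of the 21631 protein-coding genes, 108 begin below base 3000000, where the assembled chromosomes have no genes, and were kept. Promoters came from a RefSeq table and were aligned with Biopython 1.88. Assignment was checked on simulated summits at 200 genes and was correct for 200. Members and lists were chosen with earlier results of these data known, and the comparisons around starts, of short genes and of gene copies after the values were seen. Named genes are the members, genes nearest to their sites, and in each list the 3 with the highest score within 10 kb and the first 2 alphabetically without a site within 50 kb. The planned motif search at summits and in proteins was not run, since no genome or protein sequence was used here.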

Additional observations from a re-analysis of the deposited data

How the results depend on the processing

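No paired analysis was possible because the list gives 1 score per site and nothing per library, which also means that no library could be left out. Of 15 values under the alternative settings, 13 stayed within 1.5 times the reported count or within its interval. The exceptions were the number of member sites, which was 11 instead of 19 at a score of at least 10 and also 11 when only sites nearest to a member were kept. Under that last rule Treml1 and Treml2 had no site, so 80% of members had one. A share of 80% counted as within the interval because, for 10 genes, the interval reaches down to 72.25%. With windows of 10 and 100 kb there were 14 and 25 sites, and their median score was 10.5 and 10.3. Merging sites within 500 bp left all 19 and could not do otherwise, since neighbouring sites lay at least 1.94 kb apart. A wider window likewise could not lower the share of 100%. The tally of 13 therefore includes values that could not have moved and overstates how far the settings tested these results. The unknown depth limits every statement on genes without a site.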

Other observations

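Long noncoding RNA genes lay next to some member sites. The site at the lower end of Tyrobp (score 10.3) stood in the narrow gap between that gene and Gm32029, 40 bases beyond the upper end of the Gm32029 span. Both the site in front of Treml4 and the one inside Trem3 lay within the span of Gm52308 on chromosome 17. Of the 19 member sites, these 2 (10.5%) were inside a long noncoding RNA span, against 11.5% of the 11106 sites on chromosomes 1 to 19 and X, so the share was near the background.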
